A study of Mus musculus with 28 samples.

Results

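CTLL2, a line of mouse cytotoxic T cells, needs interleukin-2 (IL-2) to grow, and its transcriptome before any treatment is described here from 4 of 28 RNA sequencing libraries. These 4 are the libraries whose titles say untreated at 0 h. They come from C57BL/6 cells kept for 24 h in complete medium and harvested when fresh medium was added, with no exosomes. Replicate 1 belongs to batch 1 and replicates 2, 3 and 4 to batch 2, as the sample descriptions name the batches. They are compared once with the 12 untreated libraries taken after 0.5, 2, 4 and 8 h in fresh medium (C57BL/6, no exosomes, n = 3 at each time). The other 12 libraries had exosomes from B16F0 melanoma cells at 0.2 mg/ml and enter the error estimate of that comparison. The series text calls the replicates biological. All of them are 1 cell line, so their spread is that between cultures or preparations and not between animals. The labels do not list what the complete medium held.

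A cytotoxic T cell recognises its target through the T-cell receptor and its CD3 chains and kills it by releasing perforin, which opens membranes, and granzymes, the serine proteases that then enter. IL-2 binds a receptor of alpha, beta and gamma chains, which acts through the kinases JAK1 and JAK3 and the factor STAT5 to drive growth, survival and effector genes. A line kept on IL-2 can be grown without antigen.

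Levels are in the unit TPM, reads per kilobase of exon scaled to the same sum in each library, so that genes can be compared with each other. Where 4 values follow a gene, they are those of replicates 1, 2, 3 and 4 in that order, and a mean is given ± SD over these 4 libraries. A gene counts as expressed at 1 TPM or more in every one of the 4. The libraries held 10587840, 12617551, 16107682 and 13944249 reads. The table holds only genes with a read in at least 1 of the 28 libraries. The shares below therefore leave out genes without a read in any of the 28. Of 18129 protein-coding genes in the table, 10445 (57.6%) were expressed, 8080 reached 10 TPM and 1497 reached 100 TPM in every library. This 57.6% is the share to set beside each count of expressed list members below. Another 4164 were low or variable, and 3520 (19.4%) had no read in any of the 4. Such a gene is listed at 0 in the table, and since the annotation behind the counts is not named, this does not show that its transcript was absent. On log2(TPM + 1) over 13518 expressed genes, the 3 batch 2 libraries had Pearson's r of 0.990 to 0.992 with each other and 0.975 to 0.979 with replicate 1, across genes that are not independent.

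Among protein-coding genes, which held 80.5% of all TPM, the 2 highest were effector genes. Genes of other types were not ranked. Gzma and Gzmf, 2 granzymes, had the highest mean TPM of all protein-coding genes, and 7 of the 20 highest were granzymes. The others among the 20 were Lgals1, which encodes a galactoside-binding lectin, B2m, the light chain of MHC class I, the elongation factors Eef1a1 and Eef2, Actb, Hsp90ab1, the interferon-inducible Ifitm1, Tmsb4x, the granule membrane gene Nkg7 and the ribosomal protein genes Rpl32, Rpl8, Rplp1 and Rpl4. Together the 10 granzymes in the table made up 9.06%, 5.58%, 6.11% and 6.10% of all TPM in replicates 1 to 4.

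Gzmf and several of its neighbours are similar copies whose coding sequences begin almost alike, and their first coding bases are shown because shared stretches limit how far reads can be told apart. Each line gives the first 60 bases of the coding sequence, 5′ to 3′, read from GENCODE M21 transcripts on GRCm38, and capitals mark bases that differ from Gzmf at the same position.
Gzmf: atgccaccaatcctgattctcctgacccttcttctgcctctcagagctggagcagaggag
Gzmd: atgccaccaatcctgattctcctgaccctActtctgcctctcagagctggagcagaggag
Gzme: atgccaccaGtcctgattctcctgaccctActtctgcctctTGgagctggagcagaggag
Gzmg: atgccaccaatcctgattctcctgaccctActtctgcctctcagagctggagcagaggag
Gzmc: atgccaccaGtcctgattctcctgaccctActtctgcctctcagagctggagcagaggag
Gzmb: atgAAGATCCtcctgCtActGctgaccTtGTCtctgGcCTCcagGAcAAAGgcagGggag
Gzmd, Gzme, Gzmg and Gzmc differed from Gzmf at 1, 4, 1 and 2 of these bases, while Gzmb differed at 25. Over the aligned coding sequence Gzmd and Gzme were 93.3% identical and Gzmf and Gzmg 86.9%, while Gzma and Gzmf were 53.9% identical. Of the 50-base stretches in their transcripts, 21.9% of Gzmd, 19.4% of Gzmf and 19.8% of Gzmg also occurred in another gene, against 0% of Gzma, Gzmb and Gzmk. How the authors counted reads that map to several places is not given in the sources used here, so the levels of Gzmd, Gzme, Gzmf and Gzmg relative to each other are uncertain.

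Among the granzymes whose transcripts share no 50-base stretch with another gene, Gzma, a tryptase encoded at chromosome 13 from 113093825 to 113100981, was at 32529.8, 26273, 29174 and 28588 TPM. Gzmb, which cleaves after aspartate and activates caspases, was at 6795, 4713, 4851 and 5193 TPM. Gzmk was at 2255, 2003, 2139 and 2166 TPM. The 4 libraries lay close together for Gzma and Gzmk, and replicate 1 was the highest for Gzmb, 1.38 times the batch 2 mean.

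The copies on chromosome 14 stood apart between the batches. In bulk RNA, fewer cells with a transcript and less of it per cell cannot be told apart. Gzmf was at 30602, 15335, 16621 and 16628 TPM and Gzmd at 6366, 1997, 2129.5 and 2137 TPM. Gzme was at 3532, 840.2, 865 and 927 TPM, so for these 3 genes replicate 1 was far above the batch 2 libraries, which lay close together. Gzmc ran the other way, at 2117, 2494, 2745 and 2933 TPM, and replicate 1 was the lowest. Of all 10 granzymes, on chromosome 14 or elsewhere, Gzmn and Gzmm were low, at 3.68 to 21.6 and 3.46 to 7.804 TPM.

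Perforin, encoded by Prf1, was at 3082, 1569, 1549.8 and 1531 TPM, with replicate 1 about 1.99 times the batch 2 mean. Nkg7, a granule membrane gene needed for granule release, was at 1965, 2142, 2249 and 2225 TPM in a narrow range. Of the 19 genes of cytotoxic granules and death ligands, 17 were expressed. They included the proteoglycan gene Srgn (520.2 ± 87.4 TPM), the protease gene Ctsw (673 ± 62.5 TPM), Cst7 (971 ± 124 TPM), which encodes an inhibitor of cathepsins, and the release machinery Unc13d, Stxbp2, Rab27a and Stx11. Fasl, the death ligand, was at 108, 113, 118 and 117 TPM. Fas, its receptor on chromosome 19, had 2 reads in replicate 1 and 0 in the other libraries. Serpinb9, which encodes the inhibitor that protects killer cells from granzyme B, was at 17.5 ± 1.99 TPM, far below Gzmb.

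Secreted factors were expressed in part. Of 30 cytokine and chemokine genes listed, 26 were in the table. Of these 26, 11 (42.3%) were expressed, against 57.6% of all protein-coding genes. Spp1, which encodes osteopontin, led at 478, 651, 654 and 692 TPM and Tgfb1 followed at 164 ± 18.6 TPM. Ifng was at 6.67, 6.64, 6.12 and 4.82 TPM and Tnf at 16.9, 17.00, 15.3 and 18.8 TPM in the 4 libraries. Both were thus transcribed at low levels in all 4 libraries and did not stand out in replicate 1. Il2, Il3, Il4, Il13, Il21, Il22 and Ccl3 had no read in any of the 4 libraries.

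**Figure D1:**
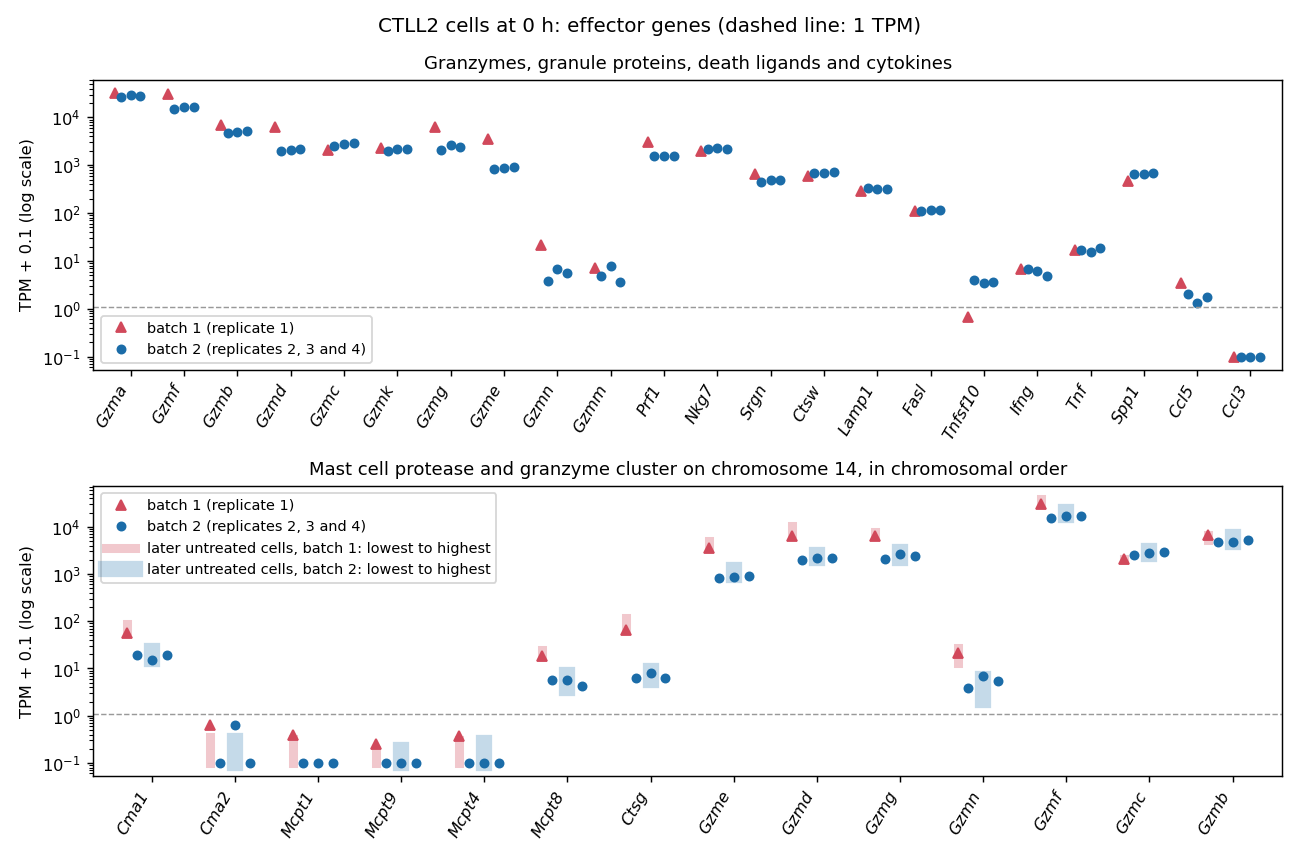
Levels at 0 h on a log scale, as TPM + 0.1, with 1 point per library (triangles: replicate 1, batch 1; circles: replicates 2, 3 and 4, batch 2). The upper panel shows granzymes, granule proteins, death ligands and cytokines, and the lower panel the chromosome 14 cluster in chromosomal order with bars from the lowest to the highest untreated library at 0.5 to 8 h of each batch. Gzma and Gzmf are the highest, Ccl3 is at 0, and for Ctsg, Gzme, Gzmd, Gzmg and Gzmf the triangle lies above all 3 circles.

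The chromosome 14 cluster holds mast cell protease and granzyme genes from Cma1 to Gzmb, between 55941451 and 56262260 on GRCm38. Its 14 coding genes in the table were not shifted alike between the batches. Ctsg, which encodes cathepsin G and was chosen after its values were seen, was at 64.3, 6.303, 8.05 and 6.27 TPM, 9.35 times the batch 2 mean in replicate 1. The ratio was 4.03 for Gzme, 3.05 for Gzmd, 2.68 for Gzmg, 3.22 for the chymase gene Cma1, 1.89 for Gzmf, 1.38 for Gzmb and 0.777 for Gzmc. The later untreated libraries showed the same split. Gzme ran from 3507 to 4945 TPM in the 4 later batch 1 libraries and from 935 to 1236 TPM in the 8 later batch 2 libraries. Ctsg ran from 71.6 to 118 TPM in the later batch 1 libraries and from 5.56 to 8.56 TPM in the later batch 2 libraries. Since only 1 library at 0 h is from batch 1, its batch and its own preparation cannot be told apart at 0 h.

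The T-cell receptor complex was present apart from its alpha chain, which was low. Of 10 genes of the complex in the table, 9 (90%) were expressed. Trbc1, a constant segment of the beta chain at chromosome 6 from 41538218 to 41539881, was at 1680.3, 1165, 1196 and 1139.7 TPM. The CD3 chain genes Cd3g, Cd3d and Cd3e had means of 485 ± 60.8, 438 ± 79.4 and 194 ± 4.78 TPM, and Cd247, which encodes the zeta chain, was at 94.8 ± 8.85 TPM. Trac, the only constant segment of the alpha chain, at chromosome 14 from 54220521 to 54224206, was at 14.96, 14.5, 14.2 and 13.6 TPM. Trbc1 thus stood 112, 80.4, 84.3 and 83.8 times above Trac in TPM, a ratio that holds in each library and rests on 221 Trac reads.

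Reads on beta variable segments fell almost wholly on 1 segment. Of 13729 reads on Trbv segments, 13210 (96.2%) were on Trbv1, at chromosome 6 from 40891229 to 40891885. The next was Trbv13-2 with 233 reads. On Trav segments there were 135 reads, 134 of them on Trav16n, 57.3% of whose 50-base stretches recur in another gene. Gamma-chain transcripts were present too, with Tcrg-C2 at 337, 369, 355 and 360.0 TPM and 2285 reads on Trgv2. The segments Trbv1, Trbv13-2, Trav16n and Trgv2 were chosen after their values were seen.

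Of 20 genes of receptor signalling, 17 (85%) were expressed. The kinase genes Lck and Zap70 were at 93.3, 101, 93.5 and 99.8 TPM and 214, 274, 254 and 247 TPM, and the adaptor gene Lat at 262, 268, 249.7 and 253 TPM, with the 4 libraries of each within a narrow range. Plcg1, which encodes the phospholipase downstream of LAT, had no read in any of the 4 libraries and 23 reads over all 28. A count of 0 allows up to 0.114 TPM for Plcg1, which is 3 reads in the shallowest of the 4 libraries and covers counting error only.

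Coreceptors were uneven. Cd8b1, the beta chain of CD8, was at 161, 127, 128 and 130.5 TPM. Cd8a, its partner, without which the beta chain is not held at the surface, was at 6.47, 3.44, 3.05 and 2.797 TPM. In every library Cd8b1 was above Cd8a, by factors of 24.8, 37.0, 41.9 and 46.7. Cd4 was at 0.0491 to 1.77 TPM and passed 1 TPM in replicate 1 alone. Thy1, the pan-T-cell surface antigen, was at 1355, 1428, 1448 and 1428 TPM and Cd2 at 19.7 ± 6.73 TPM. Cd5, Cd6 and the IL-7 receptor gene Il7r had no reads, and the hyaluronan receptor gene Cd44 was at 0.308 to 1.23 TPM. Rag1, Rag2, Dntt and Ptcra, which serve receptor rearrangement in thymocytes, also had no reads.

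Of 41 T-cell transcription factors listed, 31 (75.6%) were expressed, and Tcf7, Tox, Ets1 and Klf2 were among those that were not. Eomes, which drives effector and memory programmes, was at 210.3, 273, 261 and 259 TPM, and Tbx21, encoding T-bet, at 77.1, 78.2, 70.4 and 69.7 TPM. Runx3, a factor of the CD8 lineage, was at 228, 249.7, 226 and 212 TPM. Replicate 1 was the lowest for Eomes and lay within the batch 2 values for Runx3 and Tbx21. Id2, Bhlhe40 and Ikzf1 were at 484 ± 34.01, 571 ± 80.8 and 315 ± 9.95 TPM. Prdm1, which encodes Blimp-1, a repressor that promotes terminal effector cells, was at 109.6, 56.3, 55.7 and 59.3 TPM and so higher in replicate 1. Lef1, a factor of naive cells, was at 9.72, 16.95, 17.4 and 15.5 TPM, while its relative Tcf7 was at 0 to 0.0992 TPM. Klf2 reached 0.161 TPM in its highest library, and Tox, Ets1 and Rora were lower still, and Nr4a1, an immediate early gene of receptor signalling, had no reads. Zbtb7b, which encodes the factor of the CD4 lineage, was expressed at 27.97 ± 3.098 TPM, Gata3 at 30.4 ± 2.302 TPM and Foxp3 at 2.63 ± 0.633 TPM.

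**Figure D2:**
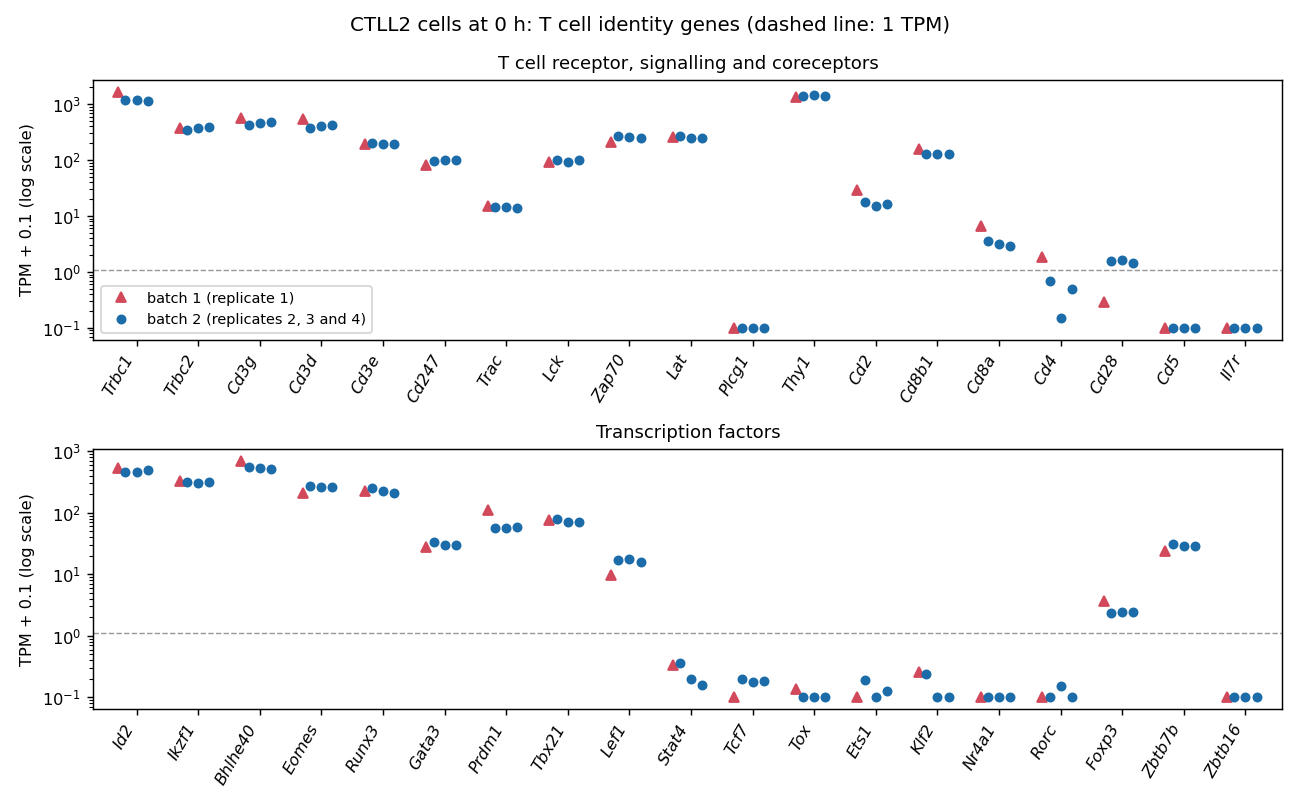
Levels of T-cell identity genes at 0 h, as TPM + 0.1 on a log scale, with 1 point per library (triangles: replicate 1, batch 1; circles: replicates 2, 3 and 4, batch 2) and a dashed line at 1 TPM. Beta chain, CD3, Thy1 and Cd8b1 lie far above the line in every library, Trac and Cd8a lie far below their partners, and Plcg1, Cd5, Il7r and Nr4a1 are at 0.

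The IL-2 pathway was complete apart from the ligand. Il2rb and Il2ra, the beta and alpha chains of the receptor, were at 1026, 797, 761 and 738 TPM and 678, 676, 608 and 637 TPM. Il2rg, the shared gamma chain, was at 159, 190.2, 181 and 177 TPM and was the lowest of the 3 chains in every library. Jak1 and Jak3 were at 219.8 ± 17.6 and 201 ± 11.1 TPM, and Stat5a and Stat5b at 140.2 ± 3.35 and 276 ± 15.7 TPM. Il2 and Il15 had no reads. Stat4, which carries the signal of IL-12, was at 0.0597 to 0.269 TPM in the 4 libraries although both IL-12 receptor chains were expressed, Il12rb1 at 82.95 ± 11.8 and Il12rb2 at 147, 164, 150.1 and 157 TPM.

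All 15 listed targets of STAT5 were expressed, each at 10 TPM or more. Cish and Socs1, inhibitors that STAT5 induces, were at 61.5, 71.04, 65.8 and 59.9 TPM and 56.8, 69.1, 64.6 and 53.8 TPM. Pim1, a survival kinase gene, was at 217 ± 8.79 TPM and Bcl2 at 123 ± 11.8 TPM. Myc was at 104, 224, 207 and 191 TPM, where replicate 1 was the lowest.

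Several cytokine receptors were expressed as 1 chain of a pair. Of 34 other cytokine receptor genes, 18 (52.9%) were expressed, near the 57.6% of all protein-coding genes. Ifngr1, the ligand-binding chain for interferon gamma, was at 117, 87.5, 79.3 and 81.9 TPM, while Ifngr2 had 1 read in the 4 libraries together. Ifnar1 of the type I interferon receptor was at 44.6, 49.9, 48.5 and 45.9 TPM and Ifnar2 had no reads. Il10ra was at 250.2, 134, 131 and 132 TPM, with replicate 1 highest, and Il10rb had no reads. Ifnar2, Il10rb, Ifnar1 and Ifngr2 follow each other on chromosome 16 between 91372783 and 91565623, so that 3 of 4 neighbours had at most 1 read and Ifnar1 between them was expressed. The next genes, Tmem50b, Gart and Son, named after their values were seen, were at 27.1 ± 3.62, 54.3 ± 8.100 and 127 ± 1.89 TPM. In the GENCODE M21 annotation 90.5% of the exon length of Ifnar2 and 85.1% of that of Il10rb overlaps no other gene. The annotation that the authors counted with is not named, and overlaps in it were not tested.

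The receptors for IL-12, IL-18, IL-4, IL-21 and TGF-beta were expressed in full as far as listed. Il18r1 and Il18rap were at 10.2 ± 2.01 and 42.5 ± 6.899 TPM, Tgfbr1 and Tgfbr2 at 53.7 ± 6.81 and 31.9 ± 1.26 TPM. Il4ra was at 60.3, 75.5, 71.3 and 68.3 TPM and Il21r at 52.5 ± 14.3 TPM, and both pair with the gamma chain. Il17ra was at 107 ± 20.3 TPM. Il1r1, Il23r, Csf2ra, Csf2rb, Il3ra and Il5ra had no reads.

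Inhibitory receptors were a mixed set, with 10 of 16 (62.5%) expressed, near the 57.6% of all protein-coding genes. Lag3, which binds MHC class II, was at 503, 556, 509.6 and 462 TPM, and Havcr2, encoding TIM-3, at 343, 251, 247 and 254 TPM. Cd96 and Vsir were at 221 ± 14.8 and 173 ± 8.04 TPM. Tigit was at 18.5, 75.7, 55.8 and 60.6 TPM and Ctla4 at 38.7, 4.25, 4.76 and 3.97 TPM, so that replicate 1 was lower than batch 2 for Tigit and higher for Ctla4. Pdcd1, encoding PD-1, had reads in 1 library at 0 to 0.103 TPM, and Btla had none. Cd274, encoding PD-L1, was at 11.1 ± 1.13 TPM.

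Of 16 costimulatory receptor genes, 8 (50%) were expressed, near the 57.6% of all protein-coding genes. Tnfrsf9, encoding 4-1BB, was at 943, 410.4, 452 and 449 TPM, 2.16 times the batch 2 mean in replicate 1. Tnfrsf18, encoding GITR, was at 99.5 ± 11.5 TPM. Cd28, the classical costimulatory receptor gene, was at 0.194 to 1.55 TPM, Icos at 0 to 0.289 TPM, and Cd40lg had no reads.

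**Figure D3:**
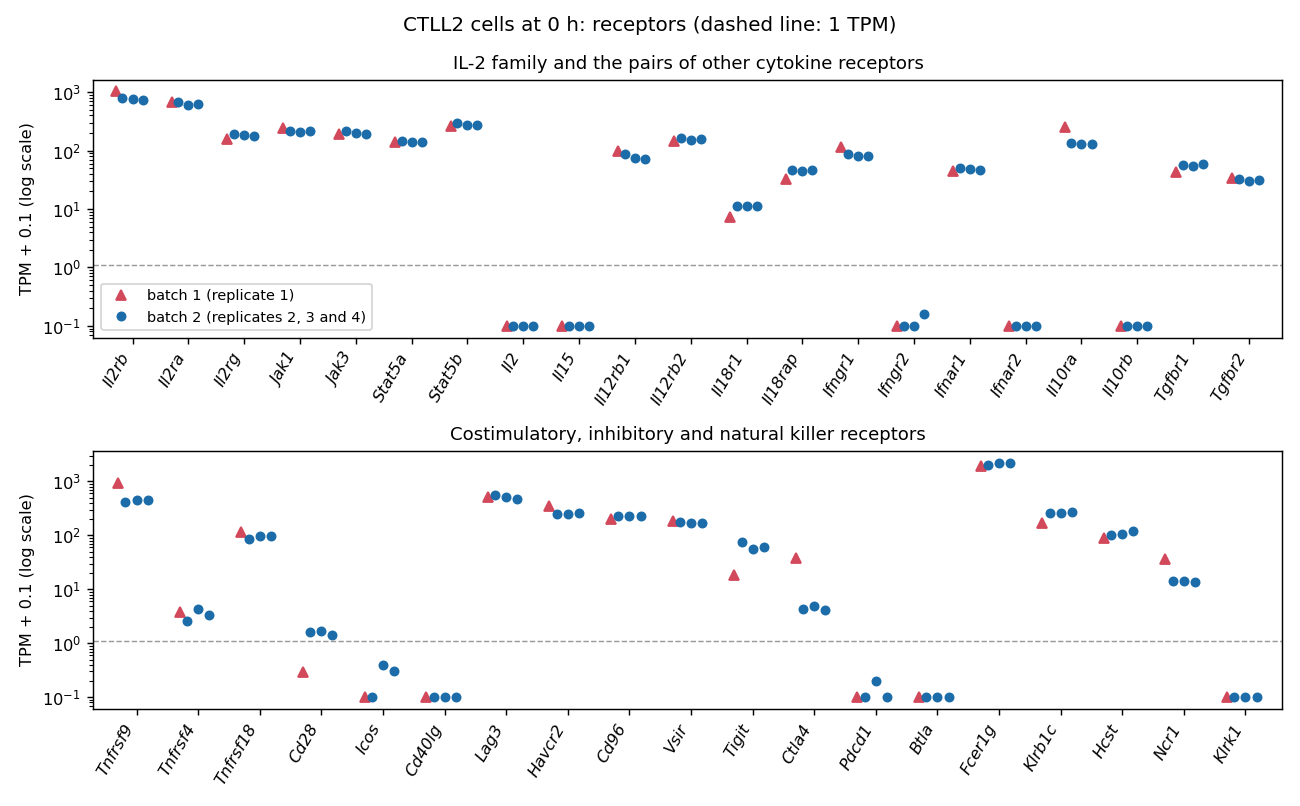
Levels of receptor genes at 0 h, as TPM + 0.1 on a log scale, with 1 point per library (triangles: replicate 1, batch 1; circles: replicates 2, 3 and 4, batch 2) and a dashed line at 1 TPM. The 3 IL-2 receptor chains lie above 100 TPM, Ifngr2, Ifnar2 and Il10rb lie at or near 0 beside expressed partners, and for Ctla4, Cd28, Tigit and Ncr1 the triangle lies well apart from the circles.

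Natural killer cell genes were expressed in part. Of 18 listed, 14 were in the table and 8 of these 14 (57.1%) were expressed, about the share of all protein-coding genes (57.6%). Fcer1g, an adaptor with an activating motif, was at 1902, 1979, 2204 and 2177 TPM. Klrb1c, encoding NK1.1, was at 168, 258, 264 and 274 TPM and Ncr1, encoding NKp46, at 37.1, 14.2, 14.3 and 13.8 TPM, and replicate 1 was lowest for Klrb1c and highest for Ncr1. Hcst, the adaptor DAP10, was at 104 ± 12.3 TPM, but Klrk1, encoding its receptor NKG2D, had no reads. Klrd1 and the Ly49 genes Klra1 and Klra3 reached at most 1.05 TPM in any library.

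Among 25 chemokine and lipid receptor genes, 12 (48%) were expressed, against 57.6% of all protein-coding genes. Ccr4, a receptor for CCL17 and CCL22, was at 147, 188, 176 and 179.9 TPM. S1pr4 and Cxcr3 followed at 131 ± 10.2 and 87.9 ± 6.79 TPM. S1pr1, which guides exit from lymph nodes, was at 0 to 0.531 TPM. Of 21 integrin and adhesion genes, 15 (71.4%) were expressed. Itgb1 was at 620.0, 829, 820.4 and 838 TPM and Itgax, encoding CD11c, at 247, 438, 419 and 417 TPM, with replicate 1 lowest for both. Itga4, a common partner of Itgb1 and Itgb7 on T cells, had no reads, although Itgb7 was at 167 ± 41.9 TPM.

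The cells carried the transcripts of a cycling population. All 20 DNA replication genes and all 20 mitosis genes were expressed at 10 TPM or more, with median levels of 130 and 111 TPM against a median of 6.53 TPM over all protein-coding genes. Mki67, the proliferation antigen, was at 254, 254, 262 and 272 TPM, in a narrow range. The helicase genes Mcm6 and Mcm2 were at 379.5 ± 22.1 and 326 ± 26.97 TPM, and Top2a, which untangles DNA, at 267 ± 7.08 TPM. Rrm2, the regulated subunit of ribonucleotide reductase, was at 643, 644, 599.8 and 622 TPM.

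Of 13 cyclin and CDK genes, 12 (92.3%) were expressed. Ccnd2, the D cyclin of lymphocytes, was at 248, 235, 224 and 225 TPM and its partner Cdk4 at 189, 249, 246 and 234 TPM. Ccnd3 was at 116 ± 5.95 TPM, while Ccnd1 was at 0.0632 to 0.295 TPM. Inhibitors were also high, 12 of 13 being expressed. Cdkn1b, which encodes p27, was at 263, 206, 219 and 237 TPM. Cdkn2a, the locus of p16 and ARF, was at 60.2, 84.9, 95.99 and 97.3 TPM and Trp53 at 98.02 ± 10.03 TPM. Cdkn1c, E2f2 and Mycl had no reads, and Tert, the telomerase protein subunit, was at 3.58, 4.23, 2.94 and 3.23 TPM.

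Survival genes of both directions were expressed, 18 of 21 (85.7%). Mcl1 was at 264, 232, 229 and 237 TPM and Bcl2 at 139.8, 119, 113 and 119 TPM, and the pro-death genes Bax and Bak1 at 231 ± 19.01 and 219.7 ± 19.98 TPM. Bcl2l11, encoding BIM, was at 41.4, 84.2, 79.8 and 79.8 TPM, and replicate 1 was the lowest.

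Every step from glucose uptake to lactate had an expressed gene. Of 31 genes of glucose uptake and glycolysis, 22 (71%) were expressed. Aldoa was at 2013, 1854, 1824 and 1807 TPM and Ldha, which makes lactate, at 1869, 1331, 1317 and 1375 TPM, with replicate 1 highest for both. Ldhb, the other lactate dehydrogenase subunit, had no reads. Slc2a1, encoding the glucose carrier GLUT1, was at 179.6, 117, 137 and 123 TPM, and Slc2a4, the insulin-responsive carrier gene, was at 0 to 0.7703 TPM. Gapdh was at 33.2 ± 8.29 TPM only, and 27.8% of its 50-base stretches occur in other genes. Its level is therefore uncertain.

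Of 27 genes of the citric acid cycle and respiration, 25 (92.6%) were expressed, with a median of 159 TPM. Atp5b and Cox4i1 were at 1312 ± 161 and 921 ± 61.7 TPM. Idh2, the mitochondrial isocitrate dehydrogenase that uses NADP, had no reads, while Idh3a of the NAD enzyme was at 141 ± 32.6 TPM. Ppargc1a, a coactivator of mitochondrial genes, was at 47.6, 117, 111 and 114 TPM, and replicate 1 was the lowest. The summed TPM of the list was 6127 in replicate 1 and 7983, 7841 and 7833 in replicates 2, 3 and 4. For glycolysis the sum was 8572 in replicate 1 and 6904, 6846 and 6932 in the others, so the lists lay on opposite sides in replicate 1. That difference between batches has 1 library on one side and was not tested at 0 h.

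Transporters and synthesis genes were broadly expressed. Slc7a5, the large neutral amino acid carrier, was at 434, 331, 319.6 and 302 TPM and Tfrc, the transferrin receptor gene, at 206, 291, 279 and 286 TPM. Slc7a11, the cystine carrier gene, was at 0 to 0.0428 TPM. Scd2, a desaturase gene, was at 1499.7, 1329, 1312 and 1319 TPM, and Scd1 was at 0.266 to 1.095 TPM. Of the synthesis genes, 32 of 35 (91.4%) for amino acids, one-carbon units and nucleotides and 18 of 21 (85.7%) for sterols and fatty acids were expressed. Ass1, the argininosuccinate synthase gene, was at 0 to 0.08205 TPM.

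**Figure D4:**
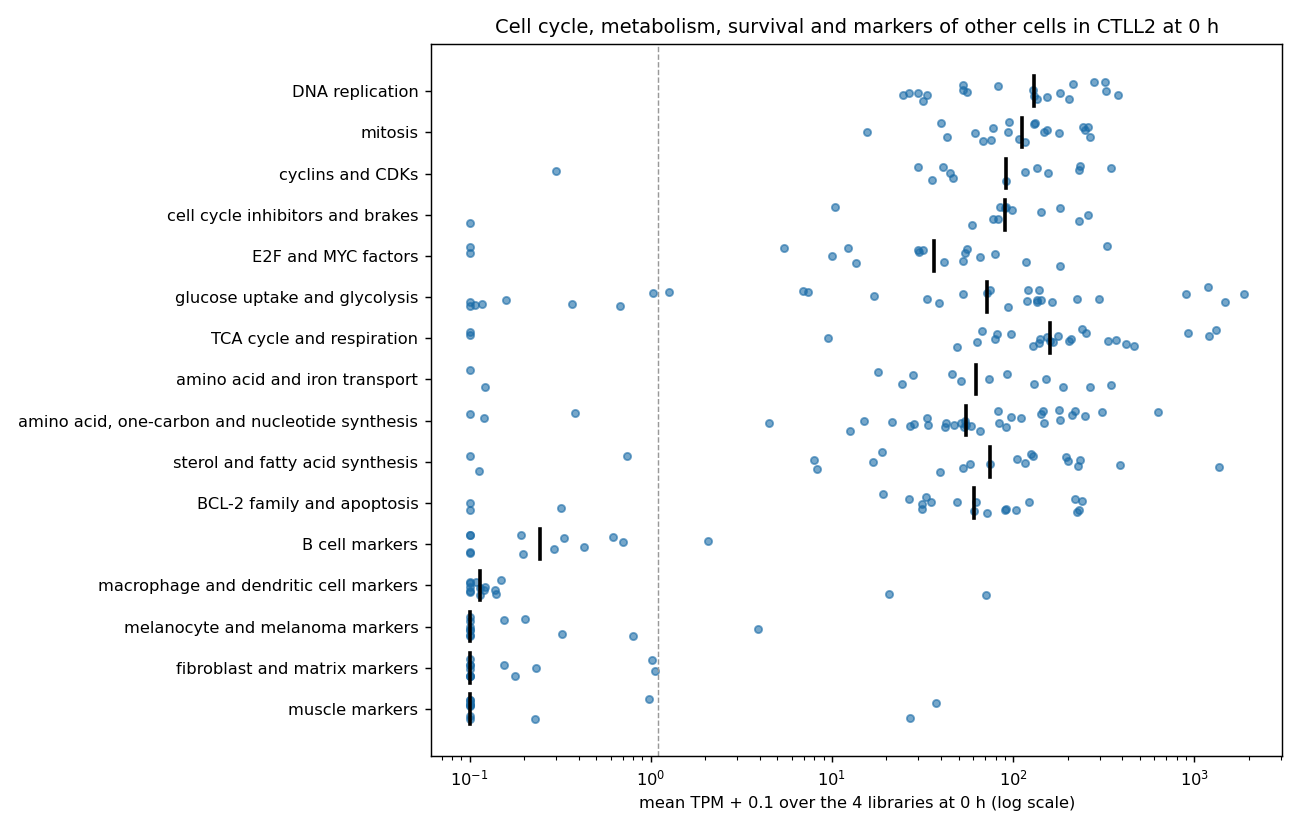
Mean TPM + 0.1 over the 4 libraries at 0 h on a log scale, with 1 point per gene and a black bar at the median of each list (the vertical place within a list is random). Lists of the cell cycle, metabolism and survival have medians between 36.6 and 159 TPM, and the lists of other cell types lie at the left edge apart from a few genes.

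Genes of other cell types were mostly at or near 0. None of 12 B-cell markers, 12 melanocyte markers and 12 fibroblast markers was expressed, with Ms4a1, Tyrp1, Tyr, Col3a1 and Dcn at 0 reads. The summed TPM of the melanocyte list was 2.09 to 6.71, most of it Gpnmb at 0.9596, 5.24, 4.804 and 4.29 TPM. Exceptions were single genes. Cd68 was at 64.9, 78.5, 70.1 and 71.00 TPM and Cd14 at 17.01, 24.1, 21.7 and 19.5 TPM, while the other 13 macrophage markers, Csf1r and Adgre1 among them, reached at most 0.198 TPM. Kit, the stem cell factor receptor gene, was at 41.9, 48.8, 46.5 and 45.8 TPM, and the mast cell genes Fcer1a, Ms4a2 and Tpsb2 had no reads. Ckm and Mylpf, muscle genes, were at 28.2, 42.8, 38.6 and 41.03 TPM and 20.5, 35.1, 26.3 and 25.7 TPM, while Acta1 stayed at or under 0.388 TPM and 8 of 12 muscle markers had no reads. Kdr, a receptor gene of endothelium, was at 16.4, 15.7, 14.4 and 14.5 TPM, with Cdh5, Tek and Emcn at 0.

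MHC class I genes were high, with B2m at 5718, 5016, 5489.9 and 5722 TPM and H2-K1 at 1932, 2017, 1943 and 1989.5 TPM. MHC class II transcripts were seen in replicate 1. Its invariant chain gene Cd74 was at 41.5, 2.33, 1.06 and 0.689 TPM and H2-Eb1 at 11.6, 0.402, 0.408 and 0.357 TPM. Cd79b of the B-cell receptor was at 6.45, 0.546, 0.415 and 0.485 TPM with the same split. The later untreated libraries were alike, with Cd74 at 25.3 to 32.9 TPM in batch 1 and at 0.865 to 2.37 TPM in batch 2. B-cell marker genes summed to 9.66 TPM in replicate 1 and to 1.88 to 2.397 TPM in batch 2, with Ms4a1 and Ighd at 0 reads in all 4. Their part in the difference was not tested.

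Replicate 1 differed more than 2-fold from the batch 2 mean for 136 of 8661 protein-coding genes at 10 TPM or more in a library (1.57%), 98 higher and 38 lower. The largest ratios upwards were those of the cardiac myosin gene Myh6 (32.9 times), Cd74 (30.5), H2-Eb1 (29.9), Ctsg (9.35), Ctla4 (8.95), Apoc1 (8.95), Krt20 (7.34), Klk8 (6.88), Sept4 (6.74) and Pgf (6.71). Downwards they were those of Fgl2, which encodes a fibrinogen-like protein, at 0.707 TPM in replicate 1 and 11.6, 11.6 and 11.96 TPM in batch 2, and of Car2, Tigit, Col15a1, Epdr1, Tnfrsf26 and Arl11. The batch 2 mean of these 6 was between 2.63 and 3.87 times that of replicate 1. The predicted genes Gm10800, Gm10801 and Gm21738 had the same direction but were carried by replicate 2, with Gm10800 at 352 TPM there and at most 25.6 TPM in the other 3 libraries.

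The baseline was compared with the same cells after the change to fresh medium to ask which levels belong to the starting point. In limma, 133 of 14828 genes (0.897%) were called at an adjusted p below 0.05 between 0 h and the mean of the later untreated times, 85 higher at 0 h (0.573%) and 48 lower (0.324%). Changes are on the scale log2(normalized count + 1), where a normalized count is a read count over the library's size factor. The count fell to 2 without a batch term, and was 613 with batch 2 alone, 282 with DESeq2 and 80 with no filter. Some later untreated libraries stood apart. The 8 muscle markers without reads at 0 h summed to 479 normalized counts at 2 h in replicate 2 and to 834 and 797 at 8 h in replicates 1 and 2, against at most 12.9 in the other 9. At 4 h replicate 1 had 15.7% of genes at 0, against 30.1% to 36.4% in the other 15 untreated libraries. The median log2 difference of the 11 muscle markers tested was -1.41, with none called, and -0.10 without the 3 libraries that held muscle transcripts. The number of genes called was 87 without these 3 and 70 without 4 h replicate 1 as well, fits added after the data were seen. Leaving out 0 h replicate 2, 3 or 4 gave 53, 54 and 53 genes, untreated 4 h replicate 3 gave 78, 8 h replicate 2 gave 87 and 8 h replicate 3 gave 502. Of 37 genes named by rule, 15 stayed called whichever of the 16 untreated libraries was left out singly, and leaving out an exosome library was not tried. Without the 3 libraries with muscle transcripts 21 stayed called, and Bcl2, Bid, Cd8b1, Coq8a, Fasl, Foxn1, Gimap5, Gnas, Id2, Il24, Jak3, Kif26a, Sla2, Socs1, Tnfaip3 and Vsir did not. Without 4 h replicate 1 as well 18 stayed called, and Cxcr4, Neil2 and Slamf7 did not either.

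Ankrd37, Ddit4 and 4 glycolysis genes were among those higher at 0 h. Ankrd37, a known target of the hypoxia-inducible factor, had 2424, 711, 924 and 936 normalized counts at 0 h, and later untreated libraries lay between 109.8 and 2029 with a median of 453. Its log2 difference was 1.49 ± 0.21 (adjusted p = 0.000445). Here and below, ± after a log2 difference is its standard error in the limma fit and not an SD between libraries. The groups overlap, and the later batch 1 libraries reach the 0 h levels of batch 2. Ddit4, an inhibitor of mTORC1 induced by stress, had 5399, 2585, 3076 and 2907 normalized counts at 0 h and lay between 1216 and 4536 with a median of 1789.9 in later libraries, a log2 difference of 0.82 ± 0.09 (adjusted p = 1.63e-05). Slc2a1 had 3050.0, 1861, 2244 and 1991 normalized counts at 0 h and lay between 797 and 2993 with a median of 1386 later, a difference of 0.69 ± 0.09 (adjusted p = 0.000417). At 0.5 h it had 2993 in batch 1 and 2359 and 2568 in batch 2, above every 0 h value of batch 2, and it fell only afterwards. With Gapdh, Pfkl and Pdk1, the last named outside the rule, it made 4 of 26 glycolysis genes tested that were higher at 0 h, and none was lower. Over all genes tested the share higher at 0 h was 0.573%, and this list was chosen with earlier results of these data known. The list's median difference was 0.12, against 0.00 over all genes tested. Pfkl in batch 2 was also higher at 0.5 h, at 3145 and 3373 normalized counts, than at 0 h, at 2810 to 2888. Gapdh was lower at 0.5 h than at 0 h in each batch.

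Kctd11, Prdm1 and the glycogen phosphatase subunit gene Ppp1r3b were higher at 0 h by 1.18, 1.03 and 0.85 on the log2 scale. Prdm1 had 2963, 1422, 1451 and 1523 normalized counts at 0 h and lay between 475 and 1736 with a median of 878 later, with adjusted p = 0.00125. The cell cycle inhibitors Cdkn1b and Cdkn1a, 2 of 12 tested against 0.573% of all genes, were higher by 0.34 and 0.41. The receptor genes Il10ra, Slamf7, Ctla4 and Vsir were higher by 0.59, 0.60, 0.67 and 0.21. Cxcr4, the receptor for CXCL12, was higher by 0.78 and its 0 h values lay above all later ones. Bcl2, Id2 and Jak3 were higher by 0.35, 0.29 and 0.38, and the NF-kB inhibitor gene Tnfaip3, Foxn1, the DNA repair gene Neil2 and Kif26a by 1.00, 0.97, 0.82 and 1.21. These differences are from the mean of the later times. In batch 2, Slamf7, Vsir, Bcl2, Neil2 and Kif26a were higher at 0.5 h than in any 0 h library. Slamf7 there had 2031 and 1867 normalized counts at 0.5 h and 1416 to 1652 at 0 h. In batch 1, Vsir and Neil2 were higher at 0.5 h than at 0 h, and Slamf7, Bcl2 and Kif26a were lower. The calls of Slamf7, Ctla4, Vsir, Cxcr4, Bcl2, Id2, Jak3, Tnfaip3, Foxn1, Neil2 and Kif26a each ended when some single untreated library was left out, 0 h replicate 3 for all 11.

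Ifng, Tnf, Socs1 and Socs3 were among the genes lower at 0 h. Ifng had 41.8, 38.9, 37.02 and 28.7 normalized counts at 0 h and lay between 49.1 and 99.5 with a median of 68.8 later, a log2 difference of -0.88 ± 0.14 (adjusted p = 0.00178), and the groups do not overlap. Tnf had 134, 126, 118 and 141 normalized counts at 0 h and lay between 127 and 476 with a median of 159 later, with the highest values at 0.5 h. Its log2 difference was -0.65 ± 0.09 (adjusted p = 0.000503). With Il24, Ifng and Tnf made 3 of 12 cytokine and chemokine genes tested, where 0.324% of all genes tested were lower at 0 h. Of 15 STAT5 targets tested, 2 were lower at 0 h, Socs3 and Socs1, and 1 other was higher. Over all genes tested these shares were 0.324% and 0.573%. Socs3 and Socs1 had log2 differences of -0.42 and -0.37, and they encode inhibitors of cytokine signalling. Both were highest at 0.5 h and overlapped the 0 h values again at 4 h. Socs3 had 1076 to 1292 normalized counts at 0 h, 2444 to 2688 at 0.5 h and 1130 to 1183 at 4 h. Socs1 had 720 to 910, 1130 to 1610 and 701 to 1021 at these times. Fasl (-0.31), the signalling inhibitor gene Sla2 (-0.26), Cd8b1 (-0.22), Bid (-0.20), Qprt (-0.48), Mien1 (-0.42), Coq8a (-0.79), Gnas (-0.56), Gimap5 (-0.44) and Sema3a (-0.41) were lower too. Of these lower genes, Ifng, Tnf, Qprt and Socs3 stayed called whichever untreated library was left out. No granzyme (10 tested), respiration gene (25), DNA replication gene (20) or mitosis gene (20) was called in either direction, where 0.897% of all genes tested were called, so that so few genes would hold hardly any at that share.

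**Figure D5:**
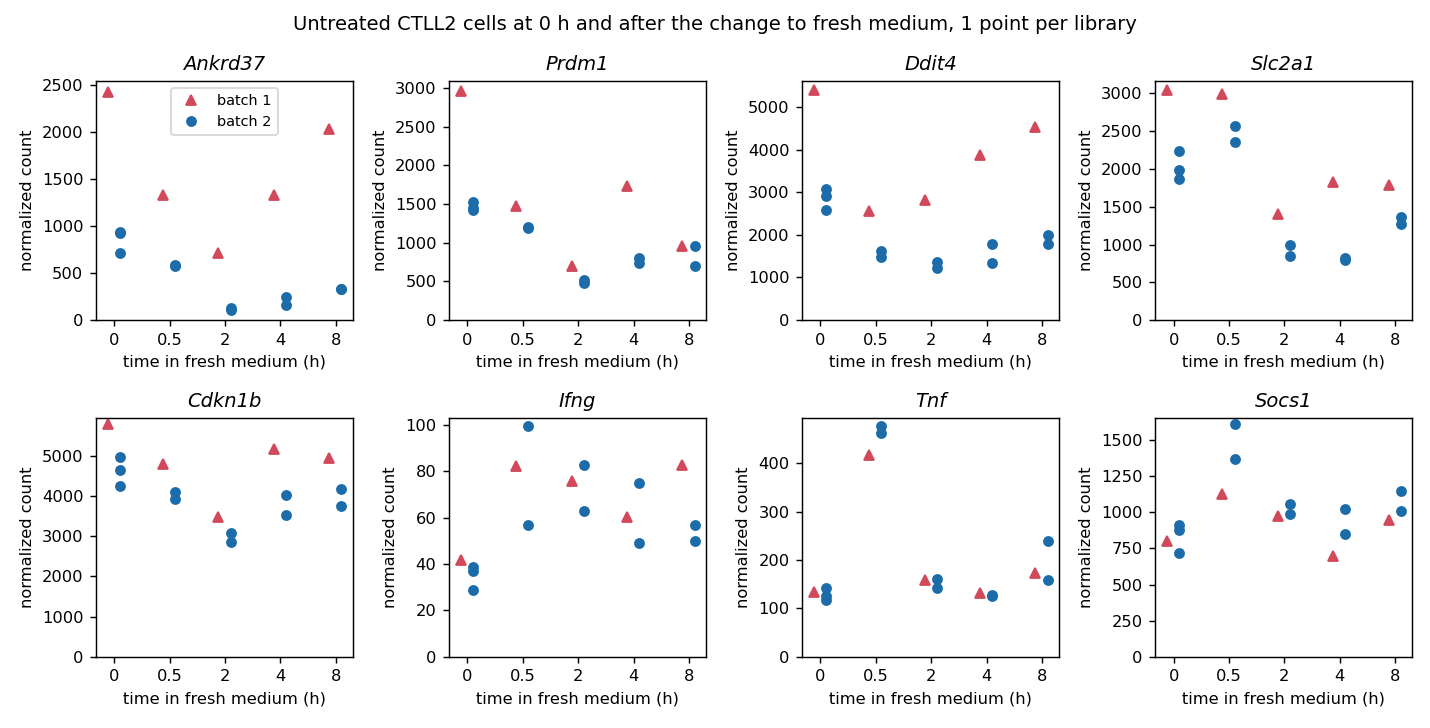
Normalized counts of 8 genes in every untreated library by hours in fresh medium, with 1 point per library (triangles: batch 1; circles: batch 2) and axes from 0. Ankrd37, Prdm1, Ddit4, Slc2a1 and Cdkn1b are higher at 0 h within each batch than at 2 h, and Ifng is lower at 0 h than at any later time. Tnf and Socs1 in each batch and Slc2a1 in batch 2 are highest at 0.5 h.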

How the data were processed

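Total RNA was taken with TRIzol and libraries were made with a TruSeq RNA kit and read as paired 50-base ends, per the labels' protocols. Per the submitters' processing notes the tools were STAR 2.4.2, featureCounts 1.5.0 and CASAVA 1.8.4, with DESeq2 under R 3.3.2, and the build was GRCm38.p2. The sources used here give neither the annotation release and strand setting nor the treatment of multiply mapped reads. The deposited values are a normalized signal, in which the authors scaled the read counts of 30608 genes by a size factor for each library. Each column divided by its smallest step came out whole, within 0.01 read, for 100% of values, with size factors of 0.693 to 1.08 at 0 h. In 1 later library the step lies too near 1 to show this on its own. At 0 h between 34.2% and 36.0% of genes were at 0, and 3 reads correspond to 2.78 to 4.33 normalized counts.

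TPM was computed from these reads and the union exon length in GENCODE M21, which holds 30439 of the gene identifiers, 24029 with the same version. Genes whose copies share sequence lose or gain reads by the unknown counting rule. Levels have no test. The comparison with later untreated cells was fitted in limma 3.58.1 under R 4.3.3, with a trend of variance on mean, to log2(normalized count + 1) of genes that reached 10 normalized counts in 3 libraries or more. The 28 libraries entered with a mean for each of 9 groups and batch as a term (18 residual degrees of freedom), and Benjamini-Hochberg adjusted p-values over the 14828 genes tested were called below 0.05. edgeR 4.0.16 and DESeq2 1.42.0 on the recovered reads were alternatives.

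The members and the 38 gene lists were chosen with earlier results of these data known, so the counts by list are descriptions. Of the listed genes 657 were found in the table by symbol and 21 were not, so the shares by list leave these 21 out. Genes are named by these rules: any list member, the 20 highest protein-coding genes, the 10 with the largest ratio between the batches in each direction, and called genes of the comparison, up to 10 in each direction with 1 sign in both batches and up to 3 per list. Others are said to be named after their values were seen. Symbols were matched exactly.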

Additional observations from a re-analysis of the deposited data

Results flagged for a closer look

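Of 89 genes whose 4 values were checked, 25 had a library that stood apart from the other 3 by Dixon's rule, which chance alone meets in about 1 of 20 groups. That is 28.1%, against 10.9% of all 10445 expressed protein-coding genes, and the 89 were chosen with their values known. Among all expressed protein-coding genes 1136 had a library apart, and in 943 of these it was replicate 1. In all 25 checked genes it was also replicate 1, the only library of batch 1 at 0 h, so the library and the batch cannot be told apart at this time. It was the highest in 19 genes. These were Gzmf (30602 TPM), Gzmd (6366), Gzme (3532), Prf1 (3082), Cma1 (57.1), Trbv1 (2587), Trbc1 (1680), Cd8b1 (161), Prdm1 (109.6), Il10ra (250.2), Tnfrsf9 (943), Havcr2 (343), Ctla4 (38.7), Ncr1 (37.1), Ldha (1869), Scd2 (1499.7), Cd74 (41.5), H2-Eb1 (11.6) and Cd79b (6.45). It was the lowest in 6 genes, Klrb1c (168 TPM), Itgb1 (620.0), Itgax (247), Ppargc1a (47.6), Tfrc (206) and Bcl2l11 (41.4).

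Of 37 named genes, 4 had a difference between 0 h and later untreated cells that differed between batch 2 and batch 1 in an interaction test in limma (adjusted p below 0.05), which was added after the data were seen. Batch 1 has 1 library at 0 h, taken to vary like the others, so the batch and that single library cannot be told apart. The batch 2 minus batch 1 difference on the log2 scale was 0.75 for Neil2 (adjusted p = 0.0329), -0.47 for Bcl2 (adjusted p = 0.0425), -0.64 for Il24 (adjusted p = 0.0152) and -0.38 for Cdkn1a (adjusted p = 0.0345). Over all 14828 genes the interaction was called for 497.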

How the results depend on the processing

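The number of expressed protein-coding genes was 10862 at 0.5 TPM, 9959 at 2 TPM, 10416 with the length of the longest transcript, 10446 on normalized counts per kilobase and 10546 in batch 2 alone. It ran from 10479 to 10546 when each library was left out. Of 657 listed genes, 433 were expressed, and 424 to 444 under these alternatives. For the comparison with later untreated cells, 133 genes were called, against 133 and 142 with pseudocounts of 0.5 and 5, 135 at a mean of 50 or more normalized counts, 100 with untreated libraries only and 124 with edgeR. The count was 80 with no filter, where 30608 genes were tested, 2 with no batch term, 613 in batch 2 alone and 282 with DESeq2, and the cause was not tested. Replicate 4 exists at 0 h alone, so a replicate block in effect leaves that library out. With this block in place of batch the number called was 0 in limma. There 977 genes had an unadjusted p below 0.05, against 2700 in the fit with batch. The number called was 87 without the 3 later untreated libraries that held muscle transcripts and 70 without 4 h replicate 1 as well, where fewer libraries entered. Leaving out 1 untreated library gave 53 to 502 genes. The replicate numbers do not pair the samples. Deviations of same-numbered 0 h and later libraries had correlations of 0.21 to 0.68, apart from -0.44 and -0.40 for replicates 1 and 2 at 4 h, and not every library correlated best with its own number. Untreated 4 h replicate 1 belongs to batch 2 and replicate 2 to batch 1. Every such correlation was positive within a batch and negative between batches, whatever the replicate number. The 37 named genes were chosen as called in the main fit of the same libraries, and some also for 1 sign in both batches. Stable directions were thus largely fixed by that choice. Among these 37 genes no direction changed in any fit with a test, and in batch 1 alone that of Il24 turned to 0.0796. DESeq2 called 37 of them, edgeR 34, batch 2 alone 33 and the fit with no batch term 2. With 1 library of batch 1 at 0 h, depth and a single preparation limit every statement on replicate 1, and levels under the 3-read limit were not detectable at this depth.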

Other observations

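Xist, the RNA that coats the inactive X chromosome, had 12 reads in the 4 libraries together. The Y-linked genes Ddx3y and Eif2s3y had 0 reads and Kdm5d had 1. These genes were chosen after their values were seen.

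Control genes in wide use differed in level. Actb was at 3713 ± 339 TPM, Hprt at 405 ± 36.8 TPM, Polr2a at 145 ± 9.66 TPM and Tbp at 12.2 ± 0.838 TPM. Ppia, chosen after its values were seen, was at 24.4 ± 0.7997 TPM, and 20.8% of its 50-base stretches occur in other genes.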
